A study of Mus musculus with 9 samples.

Results

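Alanine tRNA fragments are short RNAs that align only to the nuclear transfer RNAs of alanine with the anticodons AGC, CGC and TGC. They were taken from small RNA libraries of mouse blood serum as every read whose alignments all lay on mature references of Ala-AGC, Ala-CGC or Ala-TGC. Of 41240 distinct sequences in the 9 libraries, 1935 met this rule, and they carried 40603 of 555585 reads on tRNA references. By origin, 1170 of the sequences ended at or near the 3′ end (33879 reads), 262 began at the first base (3343 reads) and 503 were internal (3381 reads). A single read stood behind 921 of them, and 54 were abundant enough to be tested: 49 from the 3′ end, 4 internal and 1 from the 5′ end.

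The samples are labelled atherosclerosis and compare diets with and without SalB (salvianolic acid B), a polyphenol from the root of Salvia miltiorrhiza. All samples are labelled week 20. One group received a normal diet, the next a high fat diet, and the last a high fat diet with SalB, with 3 libraries in each. No dose of SalB is stated in the labels. A strain-like name (C57) appears in the titles of the normal diet libraries alone, and the labels give no strain for the other mice, so diet and strain cannot be told apart in comparisons with normal diet. Whether the replicates are separate animals is not stated, so each p-value reflects the spread among these libraries, and that spread may be technical. Serum collects RNA from many tissues, and fewer releasing cells cannot be told apart from less RNA released per cell.

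As background, a transfer RNA carries an amino acid on its 3′ terminal CCA to the ribosome and reads the codon with its anticodon. Cleavage in the anticodon loop, the D loop or the T loop gives fragments that circulate in blood, bound to proteins or in vesicles. The 5′ ends of alanine tRNAs start with a run of G that lets such fragments form four-stranded structures, and long 5′ alanine fragments are known as inhibitors of translation. The adenosine at standard position 58 of the T loop (A58) is often methylated at its N1 atom. That methyl group blocks base pairing, so reverse transcriptase tends to stop just before it or to misread it. In Ala-AGC the first anticodon base is edited to inosine, which is read as G.

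The 2 alanine references below, read from the deposited alignments, show the anticodon and A58 in capitals.
Ala-AGC-2-1: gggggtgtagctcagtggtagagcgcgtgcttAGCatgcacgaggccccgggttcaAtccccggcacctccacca
Ala-TGC-2-1: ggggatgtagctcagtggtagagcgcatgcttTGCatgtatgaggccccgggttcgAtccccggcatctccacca
Each has 75 bases with CCA, and the pair differs at 7 bases. The fragments on which most results turn lie in the last 22 bases. They are shown with A58 in capitals where they hold it, and a G read in place of the terminal A is also in capitals.
Ala-CGC-1-1 54-75: tcgAtccccggcatctccacca
Ala-CGC-1-1 58-75: tccccggcatctccacca
Ala-AGC-2-1 54-75: tcaAtccccggcacctccacca
Ala-AGC-2-1 58-75: tccccggcacctccacca
Ala-AGC-3-1 54-75: tcgAtccccagcatctccacca
Ala-AGC-3-1 58-75: tccccagcatctccacca
Ala-CGC-1-1 58-75 A75G: tccccggcatctccaccG
Ala-AGC-4-1 60-76: gcccgcatcctccacca
Ala-AGC-6-1 60-76: gcccgcattctccacca
A pair of internal fragments and the tested 5′ fragment, with its run of G in capitals, are shown because they differed most between the diets.
Ala-AGC-4-1 3-16: gggattagctcaaa
Ala-AGC-4-1 39-54: gcgagaggtagcggga
Ala-AGC-6-1 1-16: GGGGaattagctcaaa
A name gives the first reference that the fragment meets and its first and last base, counted from 1 at the 5′ end. In a substitution such as A75G, the first letter is the reference's base, the number its position, and the last letter the read's base. A58 lies 18 bases before the end, at base 57 of references of 75 bases and at base 58 of those of 76 bases. Many names stand for several genes: Ala-CGC-1-1 58-75 is identical in 4 references (Ala-CGC-1-1, Ala-CGC-2-1, Ala-TGC-2-1 and Ala-TGC-4-1). In RefSeq (GRCm38.p6), 33 nuclear alanine tRNA genes are annotated, 12 each on chromosomes 13 and X and the other 9 on 6 chromosomes. RefSeq and the references name the genes differently, so no fragment was given a gene locus.

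Reads on tRNA references ranged from 28191 to 156333 per library, and alanine reads from 2430 to 8337. Some libraries stood apart. Reads on a Leu-CAG precursor made up 42.0% of SalB replicate 2, 2.55% of SalB replicate 1 and at most 0.107% of any other library. With those precursor reads left out, a T read as G at the first base was seen in 0.190% to 0.283% of the remaining reads of normal diet replicate 3 and SalB replicates 1 and 2, against 1.05% to 1.28% in the other 6 libraries. This class of libraries crosses the groups, and SalB replicate 3 shares it with all high fat diet libraries. One reference went against its name. The part of Ala-CGC-5-1 seen in the reads matched Glu-CTC-5-1 at 31 of 34 bases (91.2%) and the nearest alanine reference at 12 of 32 bases (37.5%). It carried 69 sequences and 765 reads, and the calls below were the same in number without it.

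Alanine fragments were a smaller share of serum tRNA reads with SalB. They made up 12.2%, 9.61% and 8.80% of the reads in normal diet replicates 1, 2 and 3, then 10.7%, 9.96% and 9.38% on high fat diet, and 4.56%, 3.74% and 6.05% with SalB. The SalB libraries lay below all 6 others, and the 2 diets overlapped. The means were 10.2 ± 1.78%, 10.01 ± 0.669% and 4.78 ± 1.17% (SD, n = 3 each). An exact two-sided permutation test of SalB against high fat diet gave p = 0.1, the smallest that 3 against 3 can give. The Leu-CAG precursor reads are part of the denominator, and without them SalB replicate 2 stood at 6.46% and the difference of -5.23 percentage points from high fat diet became -4.29. With each distinct sequence counted once it was -1.33 (exact permutation p = 0.1). Within the library class that holds SalB replicate 3, its 6.05% compares with 9.38% to 10.7% on high fat diet. The fall was not particular to alanine, since 3′ reads of other nuclear tRNAs were also a smaller part of tRNA reads. They were 17075 of 55465, 10213 of 28191 and 14597 of 44415 reads on high fat diet. With SalB they were 10547 of 62258, 13808 of 156333 and 5581 of 40134 reads.

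The origin of the alanine reads also differed. Fragments of 3′ ends made up 93.9% to 95.1% of alanine reads on normal diet, 89.4% to 91.5% on high fat diet, and 82.8%, 37.7% and 83.3% with SalB. Internal fragments made up 3.96% to 4.85% on normal diet, 7.77% to 9.56% on high fat diet and 13.0% to 14.7% with SalB. Without the Ala-CGC-5-1 reads this internal share was 2.53% to 3.43%, 6.34% to 7.65% and 10.5% to 11.9%. For both measures no 2 groups overlapped (exact permutation p = 0.00357 over all 280 partitions into 3 groups, 0.0136 after Benjamini-Hochberg adjustment over 19 measures, most of which were added after values had been seen). The separation of the diets in the 3′ share was lost without reads under 16 bases. The difference between high fat and normal diet was -3.81 percentage points, -0.52 among reads of 16 bases or more (exact permutation p = 0.2, groups overlapping) and -2.19 with distinct sequences counted once (p = 0.4, exact permutation). In the internal share it was 3.91, 0.783 and 3.65, with no overlap in any. Both are shares of alanine reads, and no tested sum of internal alanine reads was called by limma-voom for SalB against high fat diet. For SalB against high fat diet the 3′ difference of -22.7 became -7.55 without SalB replicate 2. Fragments of 5′ ends stood at 0.713% to 1.26% in the 6 libraries without SalB, and at 4.20%, 48.97% and 2.06% with SalB, so that their group mean of 18.4% rests on SalB replicate 2.

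**Figure D1:**
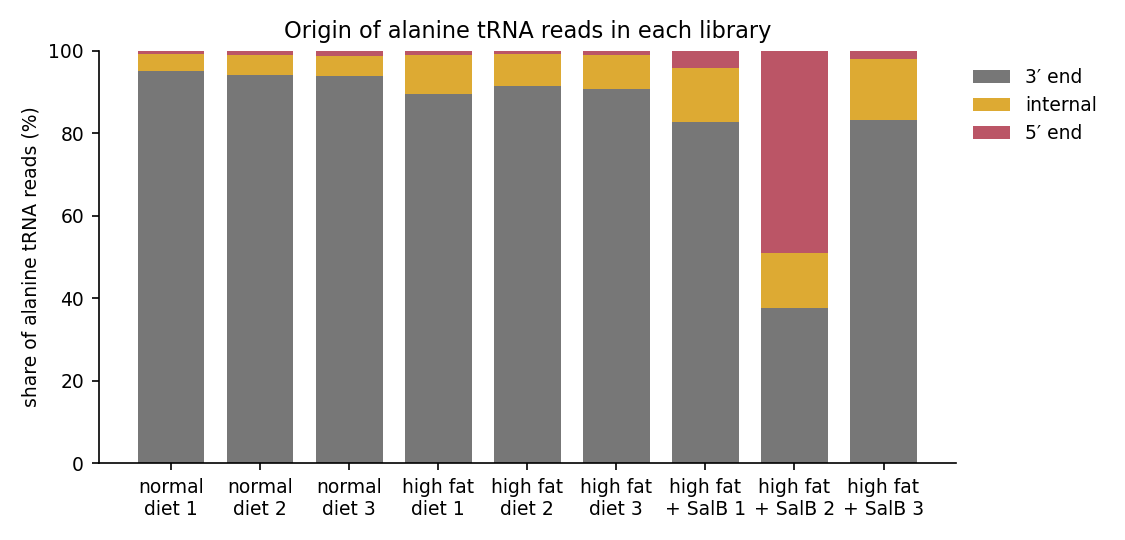
Stacked bars give the share of alanine tRNA reads (%) that came from the 3′ end, internal parts and the 5′ end in each of the 9 libraries. The internal share widens from 3.96%–4.85% on normal diet to 13.0%–14.7% with SalB, and the 5′ share is large in SalB replicate 2 alone. These are shares of alanine reads, and no tested internal alanine sum was called for SalB against high fat diet.

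SalB with high fat diet was compared with high fat diet to see which alanine fragments differ with the compound. Of the 54 tested fragments, 15 fell and 1 rose with SalB (limma-voom, adjusted p under 0.05). Over all 733 fragments tested, 34.2% were called, 17.6% higher and 16.6% lower. All 15 came from the 3′ end and none of them held A58. Mismatch and length variants of the same ending were counted apart and are not independent, several of them from the Ala-AGC-3-1 and Ala-CGC-1-1 endings. Of 20 tested fragments that start 1 base after A58, 10 fell, and the median over the 20 was -1.59 on the log2 scale. Of 10 that start later, 5 fell (median -1.43), and of 19 that hold A58 none was called (median -0.19), where 5 had an unadjusted p under 0.05 (45.3% of all fragments did). The median over all tested fragments was -0.15. The filter needs 3 libraries, so a fragment with almost no reads with SalB can be tested through the other groups alone. With 6 libraries needed, 7 of 11 fragments that start 1 base after A58 fell (median -1.14). Of later starts 4 of 8 fell (median -1.13), and of those that hold A58 0 of 13 (median -0.13).

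Among 3′ fragments of all other nuclear tRNAs, 18 of 78 that hold A58 were called (17 lower and 1 higher, median -0.53), 10 of 49 that start 1 base after it (all lower, median -0.80) and 22 of 60 that start later (all lower, median -1.13). Without SalB replicate 2 the alanine counts became 6 of 20 for fragments 1 base after A58, 4 of 10 for later starts and 0 of 19 for those that hold A58. The medians without that library were -1.38, -0.86 and 0.07 in the same order, where all tested fragments had 0.0043. With the library class as a covariate the counts were 8, 4 and 0. Scaling to total tRNA reads lowered the median of all fragments to -0.9994, and then 15 of 20, 9 of 10 and 8 of 19 fell.

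**Figure D2:**
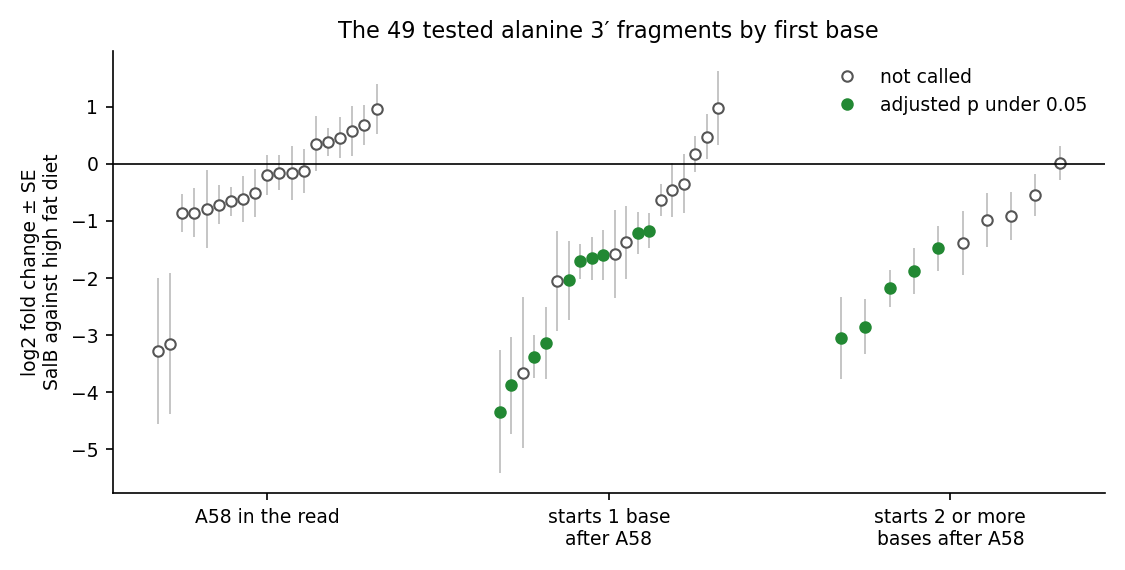
Points give the log2 fold change with SalB against high fat diet (y axis, bars are the standard error) for the 49 tested alanine 3′ fragments, grouped by whether the read holds A58, and sorted within a group. Filled points were called (limma-voom adjusted p under 0.05): 0 of 19, 10 of 20 and 5 of 10.

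The smallest adjusted p among alanine fragments belongs to Ala-AGC-3-1 58-75. Its level in normalised counts scaled to CPM was 7908, 5373 and 5868 on normal diet, 9844, 7721 and 6785 with high fat diet, and 972, 425 and 1125 with SalB. Every SalB library was below every other library. The log2 fold change with SalB against high fat diet was -3.38 (SE 0.38, limma-voom adjusted p = 0.000162), and the call held under each of the 21 alternatives, from -4.21 to -2.81. The longer form Ala-AGC-3-1 54-75, which begins 4 bases earlier and holds A58, stood at 4640, 3731 and 3840 CPM on high fat diet and 2693, 1464 and 2850 with SalB, and did not pass (log2 fold change -0.86, SE 0.33, limma-voom adjusted p = 0.0622).

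The same pair of starts was read for the most abundant alanine ending, shared by Ala-CGC and Ala-TGC. Ala-CGC-1-1 58-75 had 30451, 23327 and 19647 CPM on normal diet, 22052, 19303 and 19430 with high fat diet, and 5996, 4509 and 9074 with SalB. With SalB it fell by 1.71 on the log2 scale (SE 0.31, limma-voom adjusted p = 0.00224). Ala-CGC-1-1 54-75 stood at 15137, 16137 and 16052 CPM on high fat diet against 8744, 8876 and 13012 with SalB, which did not overlap but missed the threshold (log2 fold change -0.66, SE 0.26, limma-voom adjusted p = 0.0674).

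The ending of Ala-AGC-2-1 differs from the Ala-CGC ending in a single base. Ala-AGC-2-1 58-75 stood at 6870, 6940 and 5543 CPM on high fat diet and 4053, 3636 and 4875 with SalB, and missed the threshold (log2 fold change -0.63, SE 0.28, limma-voom adjusted p = 0.0998). Ala-AGC-2-1 54-75 stood at 7546, 5726 and 7651 CPM on high fat diet and 8772, 8758 and 9862 with SalB. Its log2 fold change of 0.39 missed the threshold and turned to -0.38 with total tRNA reads as the scale.

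Shares within the alanine 3′ reads do not depend on the scaling between libraries. Reads that start 1 base after A58 made up 49.6%, 43.9% and 41.0% of alanine 3′ reads on normal diet, 47.1%, 44.0% and 43.9% with high fat diet alone, and 28.4%, 26.8% and 30.3% with SalB. Reads that hold A58 made up 32.05% to 41.0% without SalB and 56.3% to 61.5% with it. The SalB libraries did not overlap the others in either share (exact two-sided permutation p = 0.1 against high fat diet for each). Over 3 groups, the adjusted exact permutation p was 0.0611 for each share. The means for starts 1 base after A58 were 44.8 ± 4.40%, 45.0 ± 1.80% and 28.5 ± 1.74% (SD, n = 3 each). In the library class of SalB replicate 3 its 30.3% compares with 43.9% to 47.1% on high fat diet, and in the other class SalB replicates 1 and 2 compare with 41.0% in normal diet replicate 3. With distinct sequences counted once, the difference of -16.5 percentage points between SalB and high fat diet became -5.35, and that of 19.6 for reads that hold A58 became 10.05 (exact permutation p = 0.1 for each).

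The other nuclear tRNAs gave 21.0 ± 1.44% on high fat diet and 21.6 ± 3.89% with SalB for the share that starts 1 base after A58 (n = 3 each, exact permutation p = 1). The gap between alanine and the others, in percentage points, was 24.5, 23.6 and 24.0 on high fat diet and 8.60, 0.733 and 11.3 with SalB. On normal diet it was 19.6, 20.7 and 15.6, where the others gave 26.2 ± 3.45%. No 2 groups overlapped in this gap (exact two-sided permutation p = 0.1 for each pair). With SalB it differed by -17.1 from high fat diet and by -11.8 from normal diet. In SalB replicate 2, which had the smallest gap, the others stood at 26.1%. With distinct sequences counted once the groups overlapped, and the difference of -17.1 from high fat diet became -1.44 (exact permutation p = 0.2). A mismatch at A58 was rare in reads that hold it, at 1.32% to 2.00% on high fat diet and 0.303%, 0.884% and 1.81% with SalB, which overlapped (exact permutation p = 0.3).

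**Figure D3:**
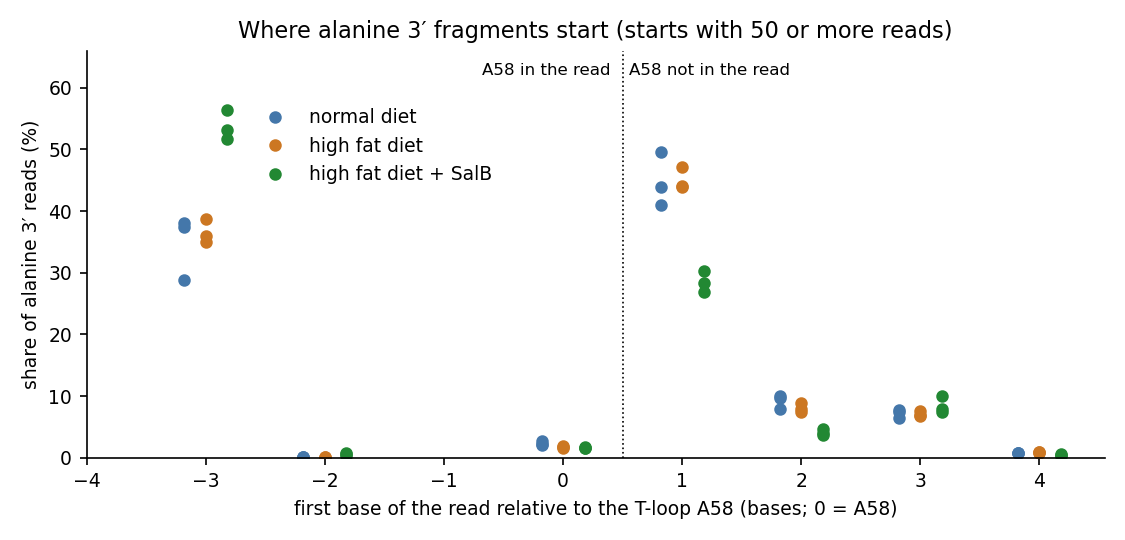
Points give the share of alanine 3′ reads (%) in each library that start at a given distance in bases from A58, for starts with 50 or more reads from 4 bases before it. Starts 3 bases before A58 reach 51.6% to 56.4% with SalB, while starts 1 base after it lie at 26.8% to 30.3% with SalB and at 41.0% to 49.6% in the other libraries.

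The endings after A58 tell alanine genes apart only in part, and 6 of them held at least 100 reads. The ending with most reads (16312) is shared by references of Ala-CGC and Ala-TGC, and the next (8164) by Ala-AGC-2-1 and Ala-TGC-1-1. Reads of the Ala-AGC-3-1 ending that start 1 base after A58 had 13493, 10020 and 9643 CPM on high fat diet and 1194, 472 and 1462 with SalB, a 10.6-fold difference of means. Reads of the same ending that hold A58 had 6758, 5769 and 5485 CPM against 3803, 2219 and 4200, which is 1.76-fold. For the ending of Ala-CGC-1-1 and its 3 identical references the ratios were 2.88-fold and 1.42-fold. For the ending of Ala-AGC-2-1 and Ala-TGC-1-1, starts 1 base after A58 were 1.39-fold lower with SalB, while reads that hold A58 were at a ratio of 1.23 (higher with SalB). All these ratios rest on the scaling between libraries and were not recomputed with total tRNA reads as the scale. On that scale Ala-AGC-2-1 54-75, which has this ending and holds A58, turned from a log2 fold change of 0.39 to -0.38.

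Of all starts 1 base after A58, the Ala-AGC-3-1 ending took 24.3%, 20.6% and 20.3% on high fat diet and 6.53%, 3.41% and 6.41% with SalB. The ending of Ala-AGC-2-1 took 17.5%, 19.6% and 16.7% against 35.5%, 42.4% and 31.7%. Neither pair of groups overlapped (exact two-sided permutation p = 0.1 for each). Of the reads of an ending that either hold A58 or start 1 base after it, the part that starts after it was lower with SalB for all 6 endings (exact permutation p = 0.1 for each). The means were 64.6 ± 1.75% and 22.4 ± 4.33% for Ala-AGC-3-1, 53.4 ± 2.32% and 35.8 ± 3.57% for the Ala-CGC-1-1 ending, and 44.6 ± 4.63% and 32.01 ± 0.884% for the Ala-AGC-2-1 ending (high fat diet first, SD, n = 3).

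**Figure D4:**
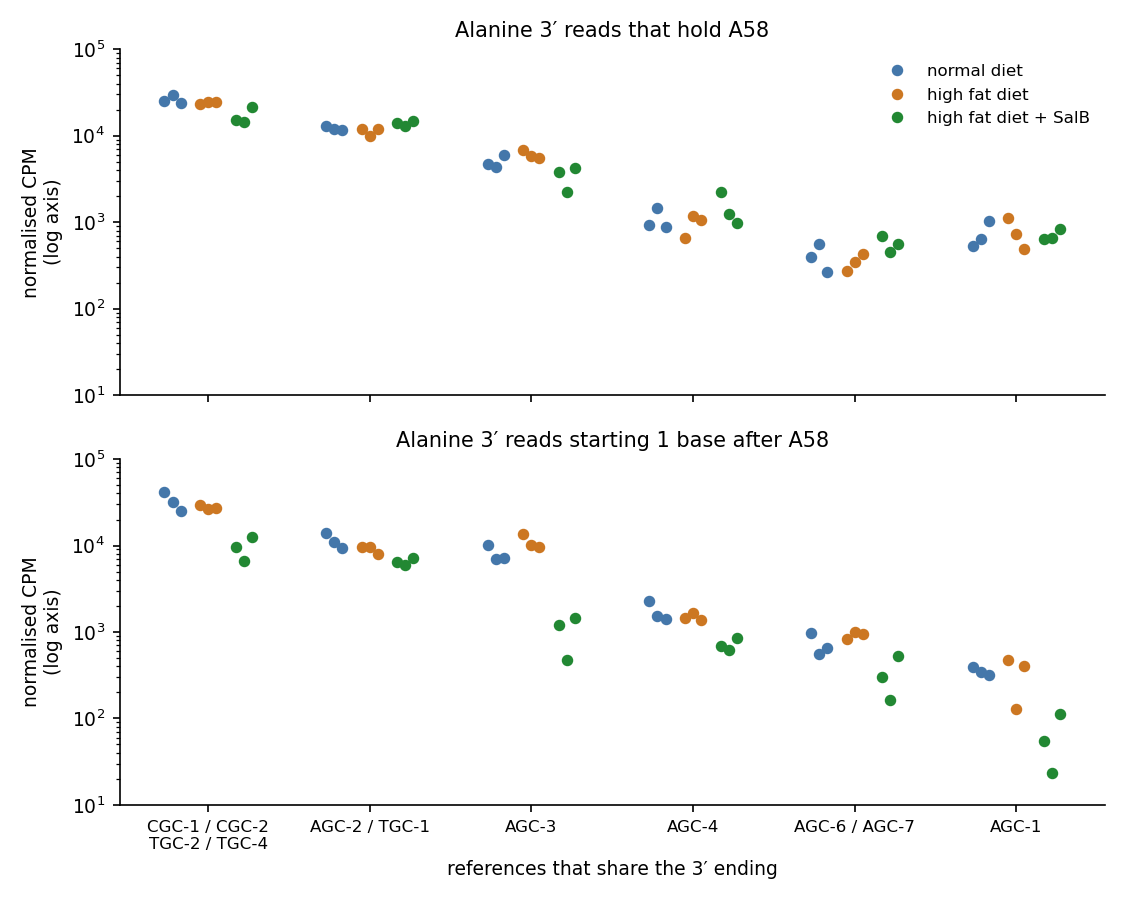
Points give the normalised CPM (log axis) of alanine 3′ reads in each library for the 6 endings, reads that hold A58 in the upper panel and reads that start 1 base after it in the lower. In the lower panel the SalB libraries of the Ala-AGC-3 ending (472 to 1462) lie farthest below the high fat diet libraries (9643 to 13493).

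Other called fragments share these endings or those of the Ala-AGC genes with references of 76 bases. Ala-AGC-4-1 60-76 had 3968, 2985 and 3587 CPM on normal diet, 1825, 2212 and 1703 with high fat diet, and 361, 519 and 337 with SalB, so that no 2 groups overlapped. With SalB it fell by 2.18 on the log2 scale (SE 0.33, limma-voom adjusted p = 0.000971). Ala-AGC-4-1 61-76, a single base shorter at its 5′ end, stood at 1194, 1475 and 1068 CPM on high fat diet and 1221, 1298 and 1200 with SalB (log2 fold change 0.01, SE 0.30). The difference between these neighbours was not tested.

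Ala-AGC-6-1 60-76 stood at 1509, 1388 and 1213 CPM on high fat diet and 194, 212 and 112 with SalB, and fell by 2.85 on the log2 scale (SE 0.48, limma-voom adjusted p = 0.00175). Ala-CGC-1-1 59-75, which starts 2 bases after A58, fell by 1.87, and Ala-AGC-4-1 59-76, which starts 1 base after it, fell by 1.66. Ala-AGC-3-1 58-75 A75G fell by 3.14 (limma-voom adjusted p = 0.00439). Ala-AGC-3-1 58-74, which lacks the terminal A, had 315, 260 and 289 CPM on high fat diet and 0, 0 and 37.5 with SalB. The remaining called fragments had log2 fold changes between -4.34 and -1.17. The lowest value belongs to Ala-AGC-3-1 58-75 T58G, which carries a G at its first base, and such reads made up 0.601%, 0.507% and 3.43% of the starts 1 base after A58 with SalB, 3.68% to 4.34% on high fat diet and 4.60%, 4.46% and 1.18% on normal diet. They follow the library class described above, in part by definition, since they count toward the first-base measure that sets it. Ala-AGC-3-1 58-75 T58G had 0, 0 and 1 reads with SalB. The part of the class in this call was not tested apart from the covariate fit.

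Summed by family and origin, 10 alanine sums were tested and 3 fell with SalB, where 26.5% of all 166 sums were called and 14.5% fell. The 3′ sum of Ala-CGC/Ala-TGC stood at 44625, 44109 and 43768 CPM on high fat diet and 16836, 11670 and 23122 with SalB (log2 fold change -1.43, SE 0.29, limma-voom adjusted p = 0.00537). That of Ala-AGC stood at 32431, 28446 and 27355 against 16202, 11077 and 16604 (log2 fold change -1.04, SE 0.25, limma-voom adjusted p = 0.0155). It missed the threshold with the library class as a covariate and without high fat diet replicate 1, with a highest adjusted p of 0.0757. The sum of Ala-AGC/Ala-TGC had a log2 fold change of -0.86 (limma-voom adjusted p = 0.0498) and lost its call under 15 of 21 alternatives.

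The single alanine fragment that rose with SalB is internal. Ala-AGC-4-1 39-54, which starts just past the anticodon and ends in the T arm ahead of A58, had 281, 171 and 236 CPM on normal diet, 946, 564 and 462 with high fat diet, and 999, 1912 and 1462 with SalB. The 3 groups did not overlap. The log2 fold change with SalB against high fat diet was 1.13 (SE 0.38, limma-voom adjusted p = 0.0373), but the call was lost under 10 of 21 alternatives, with values from 0.35 to 1.47. Leaving out SalB replicate 2 and taking the library class as a covariate were among these.

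The last base of the 3′ reads was compared because the CCA tail carries the amino acid and is open to trimming and repair. Its measures were not planned and were added after values had been seen. Among alanine reads that reach the last base, G was read for the terminal A in 4.69%, 4.94% and 5.54% on normal diet, 7.77%, 7.17% and 7.48% with high fat diet, and 11.2%, 10.5% and 9.04% with SalB. No 2 groups overlapped. The means were 5.06 ± 0.433%, 7.47 ± 0.300% and 10.3 ± 1.11% (SD, n = 3 each, exact permutation p = 0.00357 over 3 groups, adjusted p = 0.0136). With distinct sequences counted once, the difference between high fat and normal diet fell from 2.42 to 0.377 percentage points and the diets overlapped (exact permutation p = 0.7), while SalB against high fat diet gave 2.79 and 2.64. The group means had the same order for reads that hold A58 (4.503%, 7.42% and 9.94%), reads that start 1 base after it (5.28%, 7.45% and 11.0%) and later starts (5.77%, 7.70% and 10.4%). Other nuclear tRNAs showed 4.18 ± 0.543%, 6.10 ± 0.408% and 7.86 ± 2.35% (n = 3 each), where SalB and high fat diet overlapped (exact permutation p = 0.3). High fat and normal diet did not overlap in these other tRNAs either (difference 1.92 percentage points, exact permutation p = 0.1), so that difference was not particular to alanine. The gap between alanine and the others had an exact permutation p of 0.8 for SalB against high fat diet and 0.2 for high fat against normal diet.

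Reads ending 1 base short of the terminal A made up 6.01%, 6.15% and 6.16% of alanine 3′ reads on normal diet, 5.04%, 4.98% and 5.08% with high fat diet alone, and 8.47%, 8.24% and 6.92% with SalB, again with no overlap (adjusted exact permutation p = 0.0136). Among reads of 16 bases or more, SalB and normal diet overlapped, with 5.73% in SalB replicate 3 and 5.81% in normal diet replicate 2. This share was not computed for other nuclear tRNAs. T at the last base gave 1.75% to 4.25%, 1.69% to 2.46% and 3.404% to 5.79%, and C gave 0.456% to 1.02%, 0.779% to 1.57% and 0.990% to 1.12%. Among single fragments, 7 tested ones have G for the terminal A. For high fat against normal diet all 7 had log2 fold changes above 0 (0.14 to 1.001), and none was called. The median over all 733 tested fragments was 0.01. Reads of these 7 are part of the G share given above, so they are not a separate result. Of these, Ala-AGC-3-1 58-75 A75G stood at 394, 384 and 292 CPM on normal diet and 969, 564 and 577 on high fat diet.

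**Figure D5:**
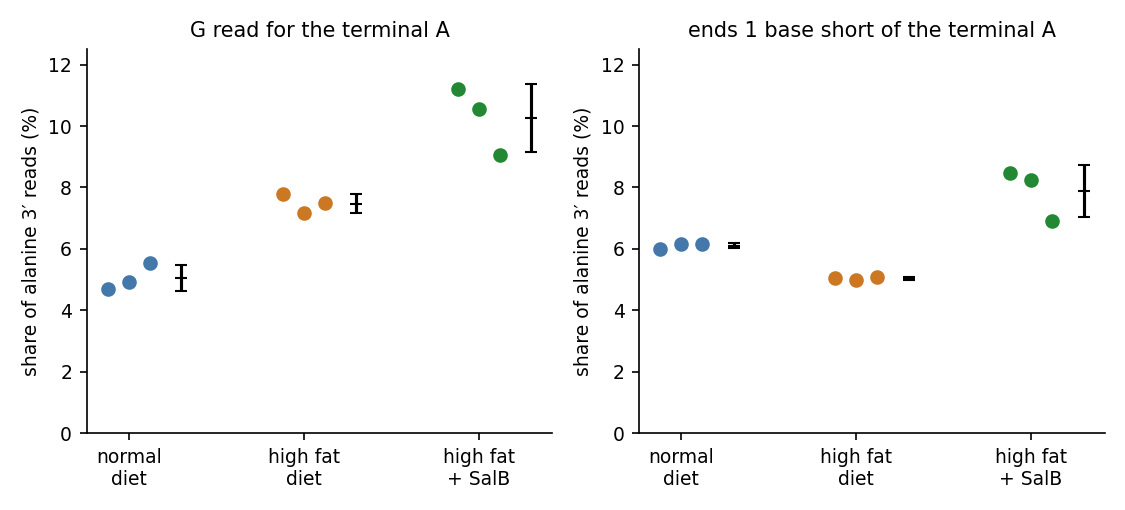
Points give the share of alanine 3′ reads (%) in each library that have G for the terminal A (left, of reads that reach the last base) or end 1 base before it (right), with the mean and SD beside each group. On the left the libraries lie at 4.69%–5.54% on normal diet, 7.17%–7.77% with high fat diet alone and 9.04%–11.2% under SalB.

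High fat diet was compared with normal diet to see what the diet alone goes with. None of the 54 alanine fragments was called by limma-voom, and 0.0% of all 733 were. Of the 54, 8 had an unadjusted p under 0.05 (11.9% of all 733 did), and limma on log2 values called 0 as well. The smallest p belongs to Ala-AGC-4-1 3-16, which covers the acceptor stem and part of the D arm. It is the most abundant internal alanine fragment (883 reads) and stood at 1154, 1919 and 1822 CPM on normal diet, 3731 to 4595 on high fat diet, and 2415, 2077 and 2587 with SalB (log2 fold change high fat against normal 1.34, SE 0.30, limma-voom adjusted p = 0.175). The next smallest p values belong to Ala-AGC-4-1 60-76 (-0.88, SE 0.29) and Ala-AGC-4-1 39-54 (1.40, SE 0.46), each with an adjusted p of 0.308. In all 3 the 2 diets did not overlap, but they were picked by their p in this comparison. Of all 54 alanine fragments, 7 were higher and 10 lower on high fat diet without overlap. Over all 733 fragments these counts were 85 and 92 (24.1%).

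The internal Ala-AGC sum was the 1 of 10 alanine sums that passed, and 0.602% of all 166 sums did. It had 2670, 2172 and 2362 CPM on normal diet, 7049, 5437 and 5110 with high fat diet, and 4438, 4823 and 5146 with SalB (log2 fold change high fat against normal 1.27, SE 0.23, limma-voom adjusted p = 0.0414). The diets were well apart in every library, but the call was lost under 15 of 21 alternatives, among them 2 other scalings and leaving out any library except SalB replicate 2. The fold change itself ran from 1.13 to 1.37. Without Ala-AGC-4-1 3-16 and other reads under 16 bases the call was also lost. For SalB against high fat diet the internal Ala-AGC sum was not called (log2 fold change -0.27, SE 0.24, limma-voom adjusted p = 0.451).

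The 5′ fragments were few outside 1 library. Ala-AGC-6-1 1-16, which keeps the run of G, had 113, 85.3 and 55.6 CPM on normal diet (4, 2 and 4 reads), 360, 130 and 289 with high fat diet, and 472, 472 and 337 with SalB. It was not called for SalB against high fat diet (log2 fold change 0.63, SE 0.43, limma-voom adjusted p = 0.276) or for high fat against normal diet (1.76, SE 0.61, limma-voom adjusted p = 0.308). No 5′ fragment of Cys-GCA, the other tRNA known for G-rich 5′ fragments, was abundant enough to be tested. Alanine 5′ reads of 28 to 36 bases, the length expected of cleavage at the anticodon, numbered 14 in all 9 libraries.

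SalB replicate 2 held 2866 of the 3343 alanine 5′ reads. Of these 2866, 2025 (70.7%) had a mismatch inside the read, as did 60 of 119 in SalB replicate 1 (50.4%), 5 of 50 in SalB replicate 3 and 2 to 10 reads in each other library. The sum of 5′ fragments shared by Ala-AGC, Ala-CGC and Ala-TGC had 12604 CPM in SalB replicate 2 against 162 to 634 in the other 8 libraries. It did not pass in SalB against high fat diet (limma-voom adjusted p = 0.261). No sequence is given for these mismatched reads, whose source was not tested. Removing them left 17 alanine fragments called for SalB against high fat diet, 16 lower and 1 higher.

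SalB with high fat diet was also set beside normal diet, which shares the SalB libraries with the first comparison and the normal diet libraries with the second. Here 19 alanine fragments fell and 3 rose, where 39.0% of all fragments were called, 18.6% lower and 20.5% higher. The strongest was Ala-AGC-4-1 60-76 (log2 fold change -3.06, SE 0.32, limma-voom adjusted p = 5.48e-05), followed by Ala-AGC-3-1 58-75 (-3.02, SE 0.38). Ala-CGC-1-1 58-75 fell by 1.95 and Ala-AGC-6-1 60-76 fell by 2.44. The 3 that rose were Ala-AGC-4-1 39-54 (2.53, SE 0.44), Ala-AGC-6-1 1-16 (2.39, SE 0.57) and Ala-AGC-2-1 54-75 A75G (1.25, SE 0.35). The last lost its call under 4 of 21 alternatives (0.52 to 1.51, highest adjusted p = 0.446), without normal diet replicate 2 among them. Ala-AGC-6-1 1-16 had 4, 2 and 4 reads on normal diet and was tested under only 15 alternatives. Its call was lost with total tRNA reads as the scale (1.55, limma-voom adjusted p = 0.0964). Without SalB replicate 1 or without SalB replicate 2, 14 fragments were called in place of 22. Of the sums, the 3 named above fell (13.3% of all sums fell) and the internal Ala-AGC sum rose (4 of 10, where 31.9% of all sums were called). The call of the internal sum (log2 fold change 0.999, limma-voom adjusted p = 0.0102) was lost with total tRNA reads as the scale (0.63, limma-voom adjusted p = 0.18) and without the low-count filter, and those of the Ala-AGC and Ala-AGC/Ala-TGC 3′ sums were lost without normal diet replicate 1 (limma-voom adjusted p = 0.0756 and 0.0729).

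Across the 9 libraries, the sums of 1 origin within 1 family whose log2 level was most like that of all alanine 3′ reads were the 3′ sums of Thr-AGT (Pearson r = 0.97) and Gly-CCC (0.96) and the 5′ sum of Asp-GTC (0.94), out of 155 compared. All alanine 5′ reads were most like the trailers of the Leu-CAG precursor (0.94), internal Glu-TTC (0.92) and 5′ Ser-AGA/Ser-TGA (0.90), which share their high level in SalB replicate 2. These are descriptions over libraries that share their depth and scaling. The editing of the first anticodon base could not be followed, since 5 Ala-AGC reads in 4 libraries covered it, of which 2 had G.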

How the data were processed

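The labels' protocols describe tRNA fragment libraries of serum RNA, 9 in all. The submitters' processing notes name FastQC, cutadapt, Bowtie, edgeR and mm10, without versions or roles. Each deposited file lists the alignments of collapsed reads to mature and precursor tRNA references, with the authors' read count inside the read name, so values are read counts and not a column of counts. Reads had 14 to 40 bases and at most 1 mismatch. The totals are tRNA reads, not library depth. Reference letters were rebuilt from the aligned reads. The groups come from the labels.

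Each read was counted once. A filter kept sequences reaching 10 reads, scaled to the median total of 44415, in 3 libraries, and 15 reads in all: 733 fragments and 166 sums of 1 origin within 1 family. Levels were scaled by trimmed means of M values to CPM and tested by limma-voom (limma 3.58.1, R 4.3.3) over all libraries, two-sided, with Benjamini-Hochberg adjustment at 0.05 over all features. The procedure was tested on simulated data. Shares were compared by exact permutation of libraries (Python 3.11.15), which cannot go below 0.1 for 3 against 3.

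The members, lists and rules were chosen with earlier results of these data known. Named fragments were up to 8 called per comparison and direction by smallest adjusted p (the 3 smallest p where none was called), the 12 most abundant, the most abundant of each origin, partners of substituted forms, all alanine sums and the 3 sums most alike. Others named were chosen after their values were seen. Reads meeting alanine and other tRNA families, mitochondrial and precursor alanine reads were left out. The wobble share was not computed. Libraries within a group differed by more than sampling noise (chi-square per degree of freedom 2.30 to 31.0).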

Additional observations from a re-analysis of the deposited data

Results flagged for a closer look

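Reads that meet an alanine tRNA and another tRNA family lie outside the alanine fragments described above. They made up a mean of 0.275% of tRNA reads with SalB (0.183% to 0.431%), above the 0.0869% to 0.153% on normal diet and the 0.128% to 0.168% on high fat diet.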

How the results depend on the processing

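For SalB against high fat diet, 16 alanine fragments were called (15 lower, 1 higher). The count was 33 (all lower) with total tRNA reads as the scale and 84 without the low-count filter, which tested 1935 fragments, and it ran from 10 to 20 when 1 library was left out. For high fat against normal diet it was 3 without the filter and 0 under every other alternative. For SalB against normal diet the 22 calls became 88 without the filter and 14 to 25 with 1 library left out. Of the alanine sums, 3 were called for SalB against high fat diet, 1 with the first-base class as a covariate (added after seeing the data), and 1 to 5 with 1 library left out (1 without high fat diet replicate 1, 5 without SalB replicate 3). The 1 sum called for high fat against normal diet became 0 with size factors by medians of ratios, total reads, no filter, the replicate block, limma on log2 values, reads of 16 bases or more and the first-base class, and 0 to 1 with 1 library left out. For SalB against normal diet the 4 sums ran from 2 to 7 with 1 library left out. Fits with the mismatch variants merged gave fragments only, and the wobble share gave no value. Shares of high fat against normal diet that were near 0 changed sign: the alanine share of tRNA reads (-0.194 percentage points) ranged from -0.897 to 0.806 with 1 library left out and was 0.131 with distinct sequences counted once, the 5′ share (-0.108) ranged from -0.2002 to 0.00787, and the share that starts 1 base after A58 (0.161) ranged from -1.76 to 2.56. The share that holds A58 (0.891) ranged from -2.03 to 2.44 and was -1.29 with distinct sequences counted once. No other share recomputed changed sign. The cause of these changes was not tested.

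The numbers do not pair the libraries: the correlations of same-numbered deviations ran from -0.320 to 0.146. With the replicate block, SalB against high fat diet gave 17 called alanine fragments (0 higher), high fat against normal diet 0, and SalB against normal diet 20.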
